A study of Mus musculus with 6 samples.

Results

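A set of 10 genes that are normally used in germ cells and in meiosis, of 19713 genes measured, was followed in mouse embryonic stem cells by RNA sequencing. They were chosen by gene symbol as autosomal germ-line genes: Dazl, Ddx4, Mael, Sycp1, Sycp3, Tex19.1, Tuba3a, Slc25a31, Stk31 and Hormad1. The cells came from blastocysts of the C57Bl/6 strain and had 1 of 3 genotypes: wild type (WT), homozygous for the missense change C54Y of the transcription factor THAP1 (C54Y), or Thap1 deleted for exon 2 and labelled THAP1 -/- (KO). All grew on irradiated mouse fibroblast feeders with serum and LIF, so fibroblast RNA can be present in every library. Each genotype had 2 libraries, numbered replicate 1 and replicate 2. The labels name neither the number of clones behind a genotype nor what the replicate number stands for, so p-values measure the spread between these libraries, which may be technical.

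Germ-line genes of this kind often have promoters rich in CpG dinucleotides, and in embryonic stem cells many are kept low by DNA methylation and by a variant Polycomb complex. That complex holds MGA and MAX, which bind E-boxes, and E2F6, which binds E2F sites, together with PCGF6 and L3MBTL2. Of the 10 genes, Sycp1, Sycp3 and Hormad1 encode proteins of the meiotic chromosome axis and synaptonemal complex. Dazl, Ddx4, Mael and Stk31 encode proteins of germ-cell RNA regulation and transposon silencing, and Tex19.1 encodes a protein that restrains retrotransposons. Slc25a31 encodes the testis ADP/ATP carrier of mitochondria and Tuba3a a testis alpha-tubulin. THAP1 is a zinc finger factor whose mutations cause DYT6 dystonia, and C54Y lies in its DNA-binding domain.

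The promoters are shown first because they differ in the elements through which germ-line genes are known to be silenced. RefSeq start sites were matched for 10 of the 10 genes, in 12 windows of 250 bases before to 50 after a start (build GRCm38.p6, while the reads had been mapped to mm9). The 150 bases before the start are printed for 7 genes. Of these, 4 rose most in KO or did so without an E-box (Sycp1, Tuba3a, Tex19.1, Dazl). Hormad1 rose in KO and holds 2 E-boxes, and 2 genes hold E-boxes and were not called (Sycp3, Ddx4). Not printed are Mael, which holds an E-box and rose in KO, and Stk31 and Slc25a31, which hold E-boxes and were not called. A link between motifs and calls was not tested. Capitals mark the E-box CACGTG and the E2F core GCGGGA, which reads TCCCGC where it lies on the opposite strand.
Sycp1 (chr3:102936101-102936250, minus strand): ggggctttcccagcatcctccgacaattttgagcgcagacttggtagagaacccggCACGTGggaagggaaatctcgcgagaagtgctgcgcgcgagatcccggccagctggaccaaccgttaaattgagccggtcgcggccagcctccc
Hormad1 (chr3:95559527-95559676, plus strand): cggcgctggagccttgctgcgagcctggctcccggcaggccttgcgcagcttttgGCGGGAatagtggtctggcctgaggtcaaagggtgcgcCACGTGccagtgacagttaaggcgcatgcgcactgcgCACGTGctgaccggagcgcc
Sycp3 (chr10:88459437-88459586, plus strand): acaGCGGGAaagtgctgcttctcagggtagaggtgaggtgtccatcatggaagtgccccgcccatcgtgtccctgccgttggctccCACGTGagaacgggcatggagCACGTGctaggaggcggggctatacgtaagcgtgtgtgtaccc
Ddx4 (chr13:112652311-112652460, minus strand): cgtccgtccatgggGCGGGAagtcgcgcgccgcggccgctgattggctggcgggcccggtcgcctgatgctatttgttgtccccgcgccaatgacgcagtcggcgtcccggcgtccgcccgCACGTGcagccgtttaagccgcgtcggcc
Dazl (chr17:50293621-50293770, minus strand): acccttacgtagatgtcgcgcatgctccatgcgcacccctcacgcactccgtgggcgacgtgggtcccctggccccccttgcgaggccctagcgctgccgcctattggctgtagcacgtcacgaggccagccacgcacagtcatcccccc
Tex19.1 (chr11:121145993-121146142, plus strand): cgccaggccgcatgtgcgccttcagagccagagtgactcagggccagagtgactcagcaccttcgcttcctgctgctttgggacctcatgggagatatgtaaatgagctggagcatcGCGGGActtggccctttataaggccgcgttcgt
Tuba3a (chr6:125286082-125286231, minus strand): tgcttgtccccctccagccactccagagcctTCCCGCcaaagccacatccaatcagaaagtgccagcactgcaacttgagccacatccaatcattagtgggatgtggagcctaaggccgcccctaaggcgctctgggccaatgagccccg

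At least 1 CACGTG lay in the windows of 7 of the 10 genes, against 7.15% of the 32851 RefSeq windows of the same length. Searched on both strands, GCGGGA lay in those of 8 genes, against 19.98% of windows. Hormad1 and Sycp3 had 2 E-boxes each, which begin 57 and 20 bases before the Hormad1 start and 64 and 43 bases before the Sycp3 start. Tex19.1 and Tuba3a had a GCGGGA and no CACGTG, Stk31 had a CACGTG and no GCGGGA, and Dazl had neither. The consensus TNNGGGCA, described for human THAP1, was present in the Stk31 windows alone among the 10 genes, against 13.9% of all windows. No overlap between the 3 motifs occurred in the printed stretches. The ratio of observed to expected CpG ran from 0.472 in Tuba3a to 0.978 in Ddx4, with Tex19.1 the next lowest at 0.575, and the median of all windows was 0.384. These matches describe letters in a window and were not tested for binding.

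**Figure D1:**
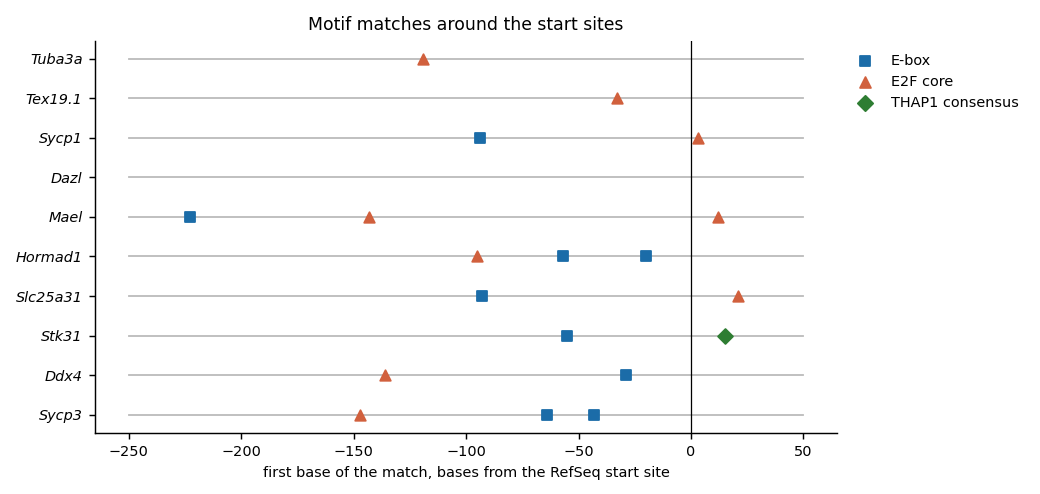
Matches of the E-box, the E2F core and the THAP1 consensus from 250 bases before to 50 bases after 1 RefSeq start site of each gene (horizontal axis, bases from the start; 1 row per gene). Tuba3a and Tex19.1 hold an E2F core and no E-box, Dazl holds none of the 3 motifs, and the other 7 genes hold an E-box.

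Recovered reads came to 31774656 to 46772996 per library, and the values given below are normalized counts, that is reads divided by 1 size factor per library. For Thap1, WT libraries held 433 and 701 normalized counts, C54Y libraries 2253 and 2533, and KO libraries 1975 and 1687. Counted over the whole gene its transcripts were thus higher in both mutants, and such a count checks neither the lost exon nor the changed residue. The stem cell genes Pou5f1, Sox2 and Nanog were present in all 6 libraries, at 7539 normalized counts or more. Of 10 spermatid genes, 9 did not exceed 5.09 in any library, among them the protamine genes Prm1 and Prm2. Summed normalized counts of 15 fibroblast genes were 7050, 6479 and 2853 in WT, C54Y and KO of replicate 1, and 27442, 33297 and 31913 in replicate 2. The summed levels of the 10 germ-line genes were 2801, 4062 and 11298 in replicate 1 and 3857, 6713 and 11476 in replicate 2. The fibroblast sum was lowest in KO of replicate 1, whereas KO of replicate 2 had a higher sum than its WT. The part of feeder RNA in the results was not tested. In such bulk samples, more cells that use a gene and more RNA per cell cannot be told apart.

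All 10 genes were present in WT cells, at levels that differed widely. Per kilobase of exon (GENCODE M21), mean normalized counts in WT ran from 937 for Tex19.1 to 13.1 for Slc25a31, against a median of 129 over 14551 tested genes with a gene model. Mael (223), Sycp3 (148), Ddx4 (145) and Tuba3a (123) lay near that median on the same per-kilobase scale, and Hormad1 (64.6), Stk31 (28.6), Dazl (21.4) and Sycp1 (18.3) below it. Only Tex19.1 stood clear of the rest, with 419 and 1455 per kilobase in the WT libraries, since the 2 libraries of Mael (144 and 301), Sycp3 (253.5 and 42.8), Ddx4 (241 and 49.5) and Tuba3a (64.4 and 182) interleave. In KO the highest means per kilobase were those of Tex19.1 (3259), Tuba3a (1101), Mael (489) and Hormad1 (323), and the lowest that of Slc25a31 (25.7). Below Tuba3a this order differed between replicate numbers: Hormad1 (605) lay above Mael (527) in KO replicate 1, Stk31 (8.26) and Sycp1 (10.4) lay below Slc25a31 (13.8) in KO replicate 2, and Sycp1 (2.17), Dazl (6.40) and Stk31 (9.14) lay below Slc25a31 (12.1) in WT replicate 2. All 10 passed the filter of 10 normalized counts in at least 2 libraries. Sycp1 reached that level in 5 libraries and the other 9 in all 6.

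**Figure D2:**
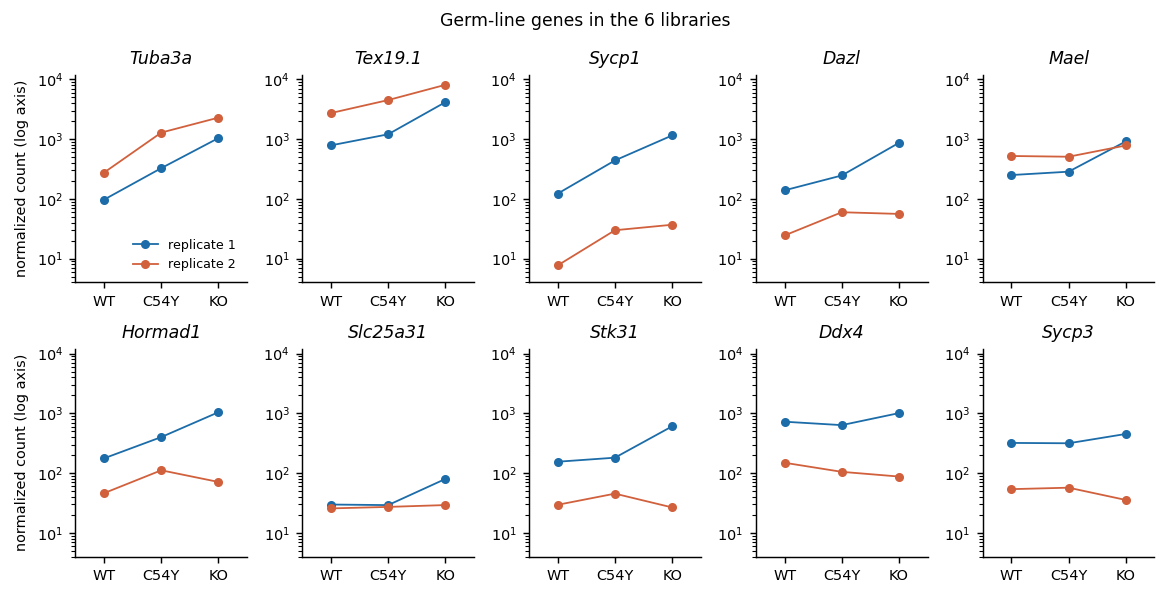
Normalized counts (log axis) of each germ-line gene in WT, C54Y and KO libraries; points are single libraries and lines join libraries with the same replicate number. Tuba3a and Tex19.1 lie higher in replicate 2, while Sycp1, Dazl, Hormad1, Stk31, Ddx4 and Sycp3 lie higher in replicate 1 in every genotype.

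KO was set against WT to ask how these transcripts stand in cells labelled as lacking THAP1. Of the 10 germ-line genes, 6 rose in KO and 0 fell, by limma on log2 of the normalized count plus 2 with replicate number as a block and Benjamini-Hochberg adjustment over 15287 genes. The share of all tested genes called up in the same fit was 8.90%, and of those called down 7.41%. The 6 genes were Tuba3a, Sycp1, Tex19.1, Dazl, Hormad1 and Mael. The median log2 fold change of all 10 was 1.40, against 0.03 over all tested genes. Without the block limma called 0 of the 10 genes and 0 genes in all. In that fit 1 of the 10 and 1049 of all genes had an unadjusted p under 0.05, edgeR without the block called 0 of the 10 and DESeq2 without the block called Tuba3a.

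Tuba3a had the largest change. Its normalized counts were 97.1 and 275 in WT and 1039 and 2283 in KO, given here and below for replicate 1 first. Both KO libraries lay above both WT libraries. The log2 fold change was 3.22 ± 0.23 (SE, n = 2 libraries per group, adjusted p = 0.000203 by limma), and the difference was alike in the 2 replicate numbers, at 3.39 and 3.04. Its paralog Tuba3b, whose longest transcript has an identity of 95.2% (from the edit distance over the length of the shorter of the pair), went from 0.747 and 3.86 normalized counts in WT to 25.2 and 68.7 in KO. Reads of the 2 genes can be exchanged in mapping, so their counts are uncertain as separate values. Tuba3b had far fewer counted reads, but these come from the same mapping and do not settle how the reads divide.

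Tex19.1, the most abundant of the 10, had 784 and 2723 normalized counts in WT and 4135 and 8067 in KO. Both KO libraries again lay above both WT libraries. Its log2 fold change was 1.98 ± 0.22 (adjusted p = 0.00109 by limma), with 2.40 in replicate 1 and 1.57 in replicate 2. The neighbouring paralog Tex19.2 also rose, from 21.7 and 82.4 to 103 and 266 normalized counts (log2 fold change 1.91, adjusted p = 0.00394 by limma). By the same measure the longest transcripts of the pair have an identity of 70.4%. Mael, which acts in piRNA-guided transposon silencing, had 250 and 521 normalized counts in WT and 914 and 782 in KO. Here too the groups did not overlap, although the rise was larger in replicate 1 (log2 difference 1.86) than in replicate 2 (0.58), with 1.22 ± 0.30 in the fit (adjusted p = 0.0244 by limma). These 3 genes were the only ones of the 10 whose KO libraries both lay above both WT libraries, which held for 13.6% of all tested genes.

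The other genes that rose did so from levels that were many times higher in replicate 1 than in replicate 2. Sycp1, which forms the transverse filaments of the synaptonemal complex, had 123 and 7.72 normalized counts in WT and 1150 and 36.9 in KO. Within replicate 1 KO was the higher by a ratio of 9.39 (95% counting interval 7.98 to 11.1), and within replicate 2 by 4.78 (1.95 to 14.1), from 29 reads against 6. The fitted log2 fold change was 2.61 ± 0.35 (adjusted p = 0.00237 by limma). Dazl, an RNA-binding regulator of translation needed in early germ cells, had 139 and 24.4 normalized counts in WT and 864 and 56.0 in KO. Its ratio was 6.22 (5.31 to 7.31) in replicate 1 and 2.29 (1.31 to 4.15) in replicate 2. The log2 fold change was 1.88 ± 0.42 (adjusted p = 0.0190 by limma). Hormad1, an axis protein that monitors chromosome pairing, had 177 and 46.3 normalized counts in WT and 1046 and 71.3 in KO. In replicate 2 its ratio of 1.54 had a counting interval that reached 0.995 (upper bound 2.41), whereas replicate 1 gave 5.91 (5.14 to 6.82). Its log2 fold change of 1.57 ± 0.45 (adjusted p = 0.0454 by limma) lay closest to the threshold. For all 3 genes the KO library of replicate 2 lay below the WT library of replicate 1, so the change shows within a replicate number and the groups overlap. Counting intervals here and below cover counting error only, and reads without molecular identifiers are not independent molecules.

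The other 4 genes were not called. Stk31, a germ-cell protein with a tudor and a kinase-like domain, had 155 and 29.6 normalized counts in WT and 607 and 26.7 in KO. KO was higher in replicate 1, by a ratio of 3.91 (3.34 to 4.58), and not distinguishable from WT at the depth of replicate 2 (0.903, interval 0.475 to 1.71). Slc25a31 followed the same course at a lower level, with 29.9 and 25.7 in WT and 79.9 and 29.3 in KO, and ratios of 2.67 (1.83 to 3.98) and 1.14 (0.597 to 2.18). Ddx4, the mouse Vasa homolog, had 725 and 149 normalized counts in WT and 1010 and 87.8 in KO. The direction turned between replicate numbers, with a ratio of 1.39 (1.28 to 1.52) in replicate 1 and 0.588 (0.430 to 0.799) in replicate 2. Sycp3, of the lateral element of the synaptonemal complex, had 320 and 54.05 normalized counts in WT and 453 and 35.6 in KO, with ratios of 1.41 (1.24 to 1.61) and 0.659 (0.394 to 1.09). The fitted log2 differences of these 4 were 0.91 ± 0.52 (Stk31), 0.77 ± 0.42 (Slc25a31), -0.14 ± 0.30 (Ddx4) and -0.04 ± 0.33 (Sycp3), with adjusted p from 0.251 to 0.954 by limma. Of the exons of Sycp3, 52.2% overlap exons of Chpt1 on the opposite strand, and the strand setting is not given in the sources used here, so its count is uncertain. Chpt1 had 371 and 178 normalized counts in WT and 580 and 335 in KO.

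**Figure D3:**
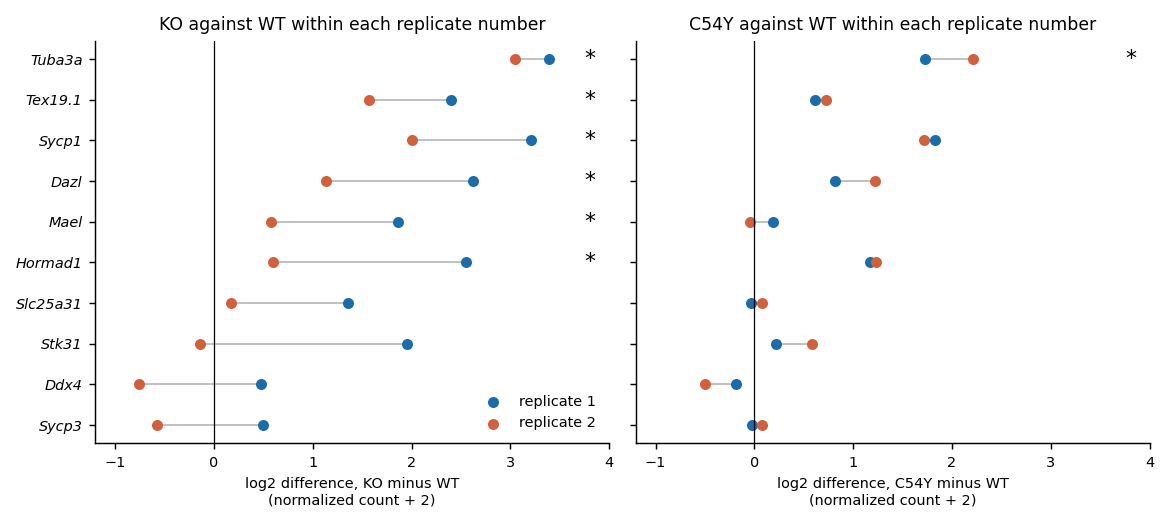
Log2 difference from WT within replicate 1 and within replicate 2 for KO (left) and C54Y (right); grey lines join the 2 values of a gene and a star marks adjusted p under 0.05 in the blocked limma fit. Every gene was farther to the right in replicate 1 than in replicate 2 in KO. In C54Y the 2 values of a gene lay closer together than in KO, except for Tuba3a. Neither pattern was counted over all tested genes.

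The KO difference was larger in replicate 1 than in replicate 2 for all 10 genes. The share of all tested genes with this direction was not counted. Tested genes with a transcript GC content of 40 to 45% had median log2 differences of 0.20 and -0.26 in replicates 1 and 2. Those at 50% or more had 0.04 and 0.14. Of the 10 genes, 8 were over 2-fold higher in KO within replicate 1, as were 7.99% of all tested genes, and 4 within replicate 2 (Tuba3a, Sycp1, Tex19.1 and Dazl), as were 7.69% of all tested genes. In both replicate numbers 7 were higher, against 36.1% of all tested genes, and 3 (Stk31, Ddx4 and Sycp3) were higher in replicate 1 and lower in replicate 2, against 22.8%. The median log2 difference of the 10 genes was 2.17 in replicate 1 and 0.59 in replicate 2. With 1 library per genotype in each replicate number, a difference between the 2 could not be tested. In the gene-wide fit Hormad1 lost its call without WT replicate 1 or without KO replicate 1, and Mael lost its call without WT replicate 1. Without KO replicate 2, Stk31 and Slc25a31 were called up as well, with a lone KO library assumed to vary like the other groups.

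In C54Y, Tuba3a was the 1 gene of the 10 called up, and 0 were called down. Its normalized counts of 326 and 1283 lay above both WT libraries, as they did for 9.30% of all tested genes and for no other gene of the 10. Its log2 fold change against WT was 1.97 ± 0.23 (adjusted p = 0.00492 by limma). The share of all tested genes called up in C54Y was 0.962%. Sycp1, at 439 and 29.9 normalized counts in C54Y, had a log2 difference of 1.77 ± 0.35 with an adjusted p of 0.0510 by limma. It was called with a pseudocount of 0.5, with TMM scaling, by edgeR and by DESeq2. It was not called with a pseudocount of 8 (adjusted p = 0.110 by limma) or without the filter (0.0511). The Sycp1 log2 difference was 1.44 without WT replicate 1 and 1.52 without C54Y replicate 2. Hormad1, at 401 and 112, had a log2 difference of 1.20 ± 0.45, with ratios of 2.27 (1.95 to 2.65) and 2.41 (1.62 to 3.66) in the 2 replicate numbers, but was not called (adjusted p = 0.311 by limma). Dazl, at 246 and 59.8, stood at 1.02 ± 0.42, and Tex19.1, at 1201 and 4487, at 0.67 ± 0.22 (adjusted p = 0.369 and 0.234 by limma). Mael did not differ detectably from WT in C54Y, at 285 and 507 normalized counts and a log2 difference of 0.07 ± 0.30.

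For the remaining genes the C54Y values stayed near WT. Slc25a31 had 29.2 and 27.3 normalized counts in C54Y (log2 difference 0.02 ± 0.42), Sycp3 316 and 57.2 (0.03 ± 0.33), Stk31 182 and 45.5 (0.40 ± 0.52) and Ddx4 636 and 105 (-0.34 ± 0.30). Each of these differences was smaller than its SE, except that of Ddx4. Of the 10 genes, 6 were higher than WT in both replicate numbers, against 33.5% of all tested genes. Over 2-fold higher in C54Y were Tuba3a, Sycp1 and Hormad1 within replicate 1 (2.90% of all tested genes) and these 3 and Dazl within replicate 2 (6.05%). For every gene but Tuba3a the C54Y differences of replicates 1 and 2 lay closer together than those of KO. Examples on the log2 scale are 1.83 and 1.71 for Sycp1 and 1.17 and 1.23 for Hormad1. The share of all tested genes with this trait was not counted, so it is not shown to be particular to the 10. Over 14551 tested genes, Spearman's rho between transcript GC content and the difference between replicate numbers was 0.492 in WT, 0.499 in C54Y and 0.645 in KO. KO and C54Y were set against the same WT libraries, so their differences from WT are not independent of each other. Without the block limma called 0 of the 10 genes in C54Y, with 0 of the 10 and 252 of all genes at an unadjusted p under 0.05. Without KO replicate 1 or KO replicate 2 it called 5 genes in C54Y (Dazl, Sycp1, Tex19.1, Tuba3a and Hormad1), and without C54Y replicate 1 or WT replicate 2 Sycp1 and Tuba3a.

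Set directly against each other, KO and C54Y did not differ by the test in any of the 10 genes. limma called 0 of the 10 up and 0 down, with 4 of the 10 and 2349 of all 15287 genes at an unadjusted p under 0.05. With the block, edgeR called 0 and DESeq2 called Mael, Tex19.1 and Tuba3a up. The share of all tested genes called higher in KO than in C54Y was 0.0458%. The log2 differences of KO from C54Y were 1.31 ± 0.22 for Tex19.1, 1.25 ± 0.23 for Tuba3a and 1.15 ± 0.30 for Mael, with adjusted p of 0.0586, 0.0658 and 0.135 by limma. Within replicate 1, KO exceeded C54Y over 2-fold in 8 of the 10 genes, as in 3.59% of all tested genes. Within replicate 2 this held for 0 of the 10 and for 2.39% of all tested genes. The largest log2 difference was that of Tex19.1, at 0.85, while Stk31, Sycp3 and Hormad1 were lower in KO than in C54Y (-0.72, -0.65 and -0.63). Tex19.1, Tuba3a and Sycp1 followed the order WT, C54Y, KO in both replicate numbers. How many of all tested genes did so was not counted. KO exceeded C54Y in both numbers in 5 of the 10 genes (33.3% of all tested genes), and in replicate 1 but not replicate 2, where it was lower, in the other 5 (25.3%). The libraries did not overlap in Mael and, by a small margin, Slc25a31 (8.64% of all tested genes). Leaving out WT replicate 1 or WT replicate 2 did not change the log2 differences of KO from C54Y, although more of all tested genes were called. Without KO replicate 2 the differences were 1.75 for Tex19.1, 1.54 for Tuba3a and 1.73 for Mael. They were 0.87, 0.95 and 0.57 without KO replicate 1. Without C54Y replicate 2 they were 1.57, 1.58 and 1.36, and without C54Y replicate 1 they were 1.05, 0.92 and 0.94.

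Levels of most of the 10 genes also differed between the replicate numbers, and the direction varied with the base composition of their transcripts. In WT, Sycp1, Sycp3, Dazl, Stk31, Ddx4 and Hormad1 were lower in replicate 2, by log2 differences from -3.68 for Sycp1 to -1.89 for Hormad1. Their longest transcripts had GC contents from 34.3% (Sycp3) to 43.1% (Ddx4). Tex19.1 (GC content 52.6%), Tuba3a (56.1%) and Mael (44.9%) were higher in replicate 2, at log2 differences of 1.79, 1.48 and 1.05, and Slc25a31 differed by -0.20. The directions were the same in C54Y and KO, except that Mael was lower in replicate 2 in KO (-0.23), where Slc25a31 differed by -1.39. Over 14551 tested genes, Spearman's rho between GC content and the WT difference between replicate numbers was 0.492, given as a description across genes that share the same 2 libraries, and rho with exon length was -0.453. The 760 genes under 40% GC had a median WT difference of -2.22, and the 7465 genes at 50% or more one of 0.38.

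The difference between KO and WT also varied with GC content, and in opposite directions in the 2 replicate numbers. Genes under 40% GC had a median log2 difference between KO and WT of 0.23 in replicate 1 and -0.28 in replicate 2, and genes at 50% GC or more had 0.04 and 0.14. After a correction for GC content chosen after seeing the data, limma with the block called the same 6 genes up in KO, with log2 fold changes from 1.28 (Mael) to 3.19 (Tuba3a). In C54Y that correction brought in Sycp1 beside Tuba3a, and between KO and C54Y it called Mael and Tuba3a. What set the 2 replicate numbers apart was not tested.

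**Figure D4:**
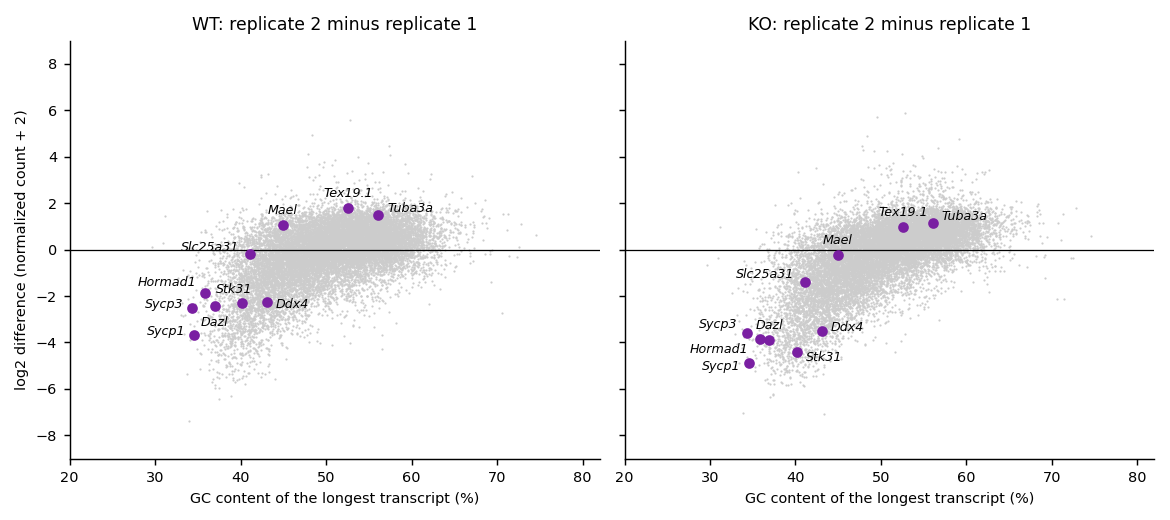
Difference between replicate 2 and replicate 1 (log2 of the normalized count plus 2) against GC content of the longest transcript, for WT and KO; grey points are tested genes and purple points the 10 germ-line genes. Tex19.1 and Tuba3a, above 50% GC, lie above 0, and the genes from Sycp3 at 34.3% to Ddx4 at 43.1% lie below 0, with Slc25a31 closest to it at -0.20 in WT.

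Other genes of the germ-line programme, taken from lists chosen with earlier results of these data known, changed in both directions. Counts of these lists stand against 8.90% of all tested genes called up and 7.41% called down in KO, and 0.962% called up in C54Y. Every call named from them was lost in limma and in edgeR without the block. Of 17 tested genes of the piRNA pathway and germ granule, 7 rose and 4 fell in KO, with a median log2 fold change of 0.73. Fkbp6, a co-chaperone needed in meiosis and piRNA silencing, went from 20.2 and 50.2 normalized counts in WT to 205 and 375 in KO (3.04 ± 0.29, adjusted p = 0.000534 by limma). Gpat2, an acyltransferase linked to piRNA production, went from 56.8 and 135 to 398 and 490 (2.30 ± 0.29). Both also rose in C54Y, by log2 fold changes of 2.16 and 1.72, calls that were lost without C54Y replicate 2 (adjusted p = 0.0849 and 0.229 by limma). Tdrd5, a tudor protein of the germ granule, fell from 427 and 444 to 158 and 106 (-1.74 ± 0.27, adjusted p = 0.00446 by limma), and Tdrd1, Tdrd7 and Ddx25 fell too. Of the genes of this list that rose, Piwil2 and Mov10l1 encode central piRNA proteins. Tdrd1, Tdrd7, Ddx25, Piwil2 and Mov10l1, and below Syce1, Tex15, Rec8, Dmc1, Nanos3 and Tfap2c, were named after their values had been seen.

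Among 24 tested genes of the meiotic axis and of recombination, 4 rose and 2 fell in KO, with a median log2 fold change of 0.08. Of all tested genes, 8.90% were called up and 7.41% down, and a difference from these shares was not tested. Hsf2bp, whose product acts in meiotic recombination with BRCA2, had 695 and 1431 normalized counts in WT, which compare with 2702 and 5258 in KO and with 1672 and 3910 in C54Y. Its libraries did not overlap between genotypes WT and KO, and its log2 fold changes were 1.92 ± 0.15 in KO and 1.36 ± 0.15 in C54Y (adjusted p = 0.000260 and 0.00398 by limma). Hormad2, a paralog of Hormad1, went from 22.4 and 43.8 to 366 and 213 in KO (3.07 ± 0.39), and was called in C54Y as well (2.22 ± 0.39). Smc1b, a meiotic cohesin subunit with a transcript GC content of 39.8%, had 91.9 and 0 in WT and 753 and 28.0 in KO (3.46 ± 0.49 as fitted, a size that depends on the pseudocount). Syce1 was the other gene of this list that rose, and Tex15 and Rec8 fell. Most of the meiotic genes, including the recombinase gene Dmc1 (835 and 529 in WT, 1063 and 420 in KO), were not called.

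Early germ-cell regulators were among the genes that rose. Of 10 genes of germ cell specification, 5 rose and 0 fell in KO, with a median log2 fold change of 0.68. Prdm14, which specifies primordial germ cells and also supports naive pluripotency, had 307 and 323 normalized counts in WT, which compare with 1571 and 1624 in KO and with 689 and 1138 in C54Y. It was called in both mutants (2.34 ± 0.21 in KO, 1.49 ± 0.21 in C54Y), in C54Y not without its replicate 2 (adjusted p = 0.176 by limma). Prdm1, the gene of BLIMP1, rose by 0.96 ± 0.19 and Ifitm1 by 0.78 ± 0.16 in KO, calls that were lost without WT replicate 1 and WT replicate 2, respectively (adjusted p = 0.0580 and 0.0758 by limma), and Nanos3 and Tfap2c rose as well. Of 5 tested oocyte genes, Ooep alone rose in KO (1.39 ± 0.19) and in C54Y (1.02 ± 0.19). In C54Y its call was lost without WT replicate 2 or without C54Y replicate 2 (adjusted p = 0.107 and 0.947 by limma). It stood at 1346 and 2872 normalized counts in WT and 3547 and 7539 in KO. Odf2, the only spermatid gene tested, was not called (-0.30 ± 0.12) and is also used at centrosomes in other cells.

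**Figure D5:**
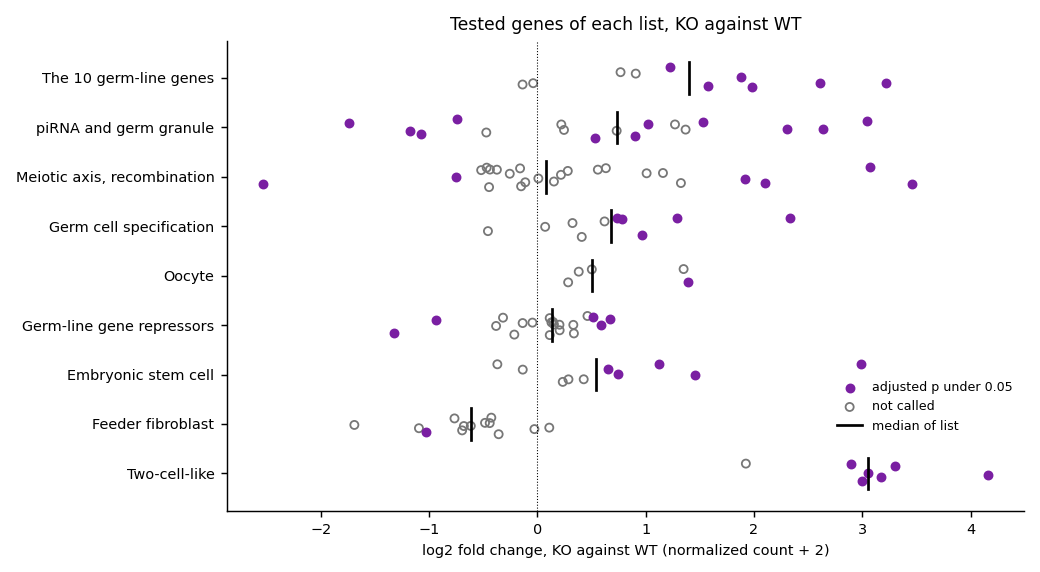
Log2 fold changes of KO against WT for the tested genes of 9 lists; filled points passed an adjusted p of 0.05, open points did not, and black bars are list medians (vertical scatter within a row is for display only). The 10 germ-line genes have a median of 1.40, meiotic genes one of 0.08 and repressors of germ-line genes one of 0.14.

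Among 20 regulators that are known to keep germ-line genes silent, 3 rose and 2 fell in KO by blocked limma. The shares of all tested genes were 8.90% called up and 7.41% called down, and a difference from them was not tested. Blocked limma called 0 of the 20 regulators in C54Y. The de novo methyltransferase gene Dnmt3b went from 12030 and 26674 normalized counts in WT to 5063 and 10158 in KO (-1.32 ± 0.14, adjusted p = 0.000937 by limma), with 11103 and 17997 in C54Y, and it was also lower in KO than in C54Y (adjusted p = 0.0455 by limma). Dnmt3a fell in KO as well (-0.93 ± 0.16), while the cofactor gene Dnmt3l was not called (0.11 ± 0.15). Of the Polycomb complex, L3mbtl2 rose by 0.67 ± 0.13 in KO (adjusted p = 0.0102 by limma), and E2f6 (0.13 ± 0.16), Mga (0.20 ± 0.22) and Pcgf6 (-0.05 ± 0.18) were not called. In C54Y, Dnmt3b (-0.34 ± 0.14), Dnmt3l (-0.61 ± 0.15), E2f6 (-0.06 ± 0.16), Mga (0.53 ± 0.22) and Pcgf6 (-0.05 ± 0.18) were not called by blocked limma either. Blocked DESeq2 called Dnmt3l lower in C54Y (adjusted p = 0.0457), as did limma without WT replicate 1 (0.00313) or without either KO library. Without KO replicate 1, limma also called Dnmt3b (0.0403) and Mga (0.0327) in C54Y. Mga had 8002 and 495 normalized counts in WT and 10374 and 507 in KO, so its level differed far more between replicate numbers than between genotypes.

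Some genes of the stem cell state and of the state that resembles the early cleavage embryo rose in KO as well. Of 10 stem cell genes, 5 rose in KO (8.90% of all tested genes) and 1, Zfp42, in C54Y (0.962%). In KO, Zfp42 stood at 2.98 ± 0.18, Nanog at 1.46 ± 0.17 and Esrrb at 1.13 ± 0.11. Without the block, limma and edgeR called 0 genes in KO or C54Y against WT. Of 7 tested genes of the early cleavage list 6 rose in KO (8.90% of all tested genes). Among them were Tmem92, Dux and Usp17le, all from WT levels of 9.01 normalized counts or fewer. Genes at such WT levels passed the filter only through mutant libraries, which favours a rise, so this count is no support for one. Dux and Usp17le belong to families of near-identical copies, so their counts are uncertain. Of 13 tested fibroblast genes 0 rose and 1, Mmp2, fell in KO, a share close to the 7.41% of all tested genes. Mmp2 lost its call without WT replicate 1 (log2 difference -0.84). The median log2 fold change of the 13 genes in KO was -0.62, against 0.03 over all tested genes. It was -1.43 within replicate 1 and -0.04 within replicate 2. The genes whose levels most resembled the mean of the 10 germ-line genes were Dkc1, Mfn1, Dcp2, C330007P06Rik and Tnpo1. Their Pearson r with that mean was 0.998 to 1.00 over the 6 libraries, among 12430 genes with a mean of at least 50 normalized counts, after centring on each replicate number. As the highest of that many genes over so few libraries, these r values describe the libraries and support no relation. Dkc1, Dcp2 and C330007P06Rik rose in KO and Mfn1 and Tnpo1 were not called. In Dkc1 the log2 differences of KO from WT were 1.24 and 0.48 in replicates 1 and 2.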

How the data were processed

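The deposited table holds normalized counts for 6 libraries, a signal that the authors made by dividing reads by size factors, as the values show: 100% of values were whole reads within 1e-06 once the factor was undone. Per the submitters' processing notes, CASAVA, Trimmomatic, TopHat2 2.1.0, HTSeq and DESeq2 were used with build mm9, and the strand setting is not given in the sources used here. Genes with at least 10 normalized counts in 2 libraries (15287) were tested with limma 3.58.1 (R 4.3.3) after adding a pseudocount of 2 and taking log2, which understates changes of low genes, with replicate number as a block, 2 residual degrees of freedom and Benjamini-Hochberg adjustment at 0.05. The block was set because mutants were compared with WT within each replicate number. Deviations of same-numbered libraries from their group means correlated at 0.869 to 0.907 across genes. Such correlations show a difference shared by the genotypes and not what the replicate number stands for. edgeR 4.0.16 and DESeq2 1.42.0 were run on recovered reads. Ratios carry exact 95% intervals. The limma fits with and without the block and blocked edgeR were tested on simulated data. There a change was equal in both replicate numbers, so changes that differ between them are not covered. GC content and exon length came from GENCODE, promoters from RefSeq. The genes and lists were chosen with earlier results of these data known. Named from each list were up to 3 genes with the smallest adjusted p in KO and 2 in C54Y, or the most abundant where 0 were called, beside fixed regulators and the 5 most similar profiles.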

Additional observations from a re-analysis of the deposited data

How the results depend on the processing

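The 6 calls in KO held with pseudocounts of 0.5 and 8, no filter, TMM scaling, blocked edgeR, blocked DESeq2 and a GC correction, the last chosen after seeing the data, as were unblocked edgeR and DESeq2. Without the replicate block, KO calls were 0 by limma, 0 by edgeR and 1 by DESeq2, and C54Y calls 0 by all 3. Calls in C54Y were 2 with a pseudocount of 0.5, TMM scaling, blocked edgeR, blocked DESeq2 or GC correction, and between KO and C54Y 3 by blocked DESeq2 and 2 with GC correction. Leaving out 1 library at a time gave 4 to 8 calls in KO, 1 to 5 in C54Y (5 without either KO library) and 0 to 8 between the mutants (8 without KO replicate 2). All genes called in KO numbered 2494, and 0, 0 and 235 without the block by limma, edgeR and DESeq2. TMM scaling gave 1139 up and 1326 down, against 1361 and 1133. GC correction and blocked DESeq2 gave 463 and 479 calls in C54Y, against 208, and 363 and 452 between the mutants, against 29. The cause was not tested. Numbers of all genes called also changed when 1 library was left out. Log2 differences between 2 genotypes stayed the same when the library left out was of the third genotype.

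Directions that turned were all of log2 differences not called by blocked limma on all libraries, and none was called where its direction turned. This does not cover the ends of the ranges below that kept their direction. Unblocked DESeq2 gave 0.33 for Ddx4, -0.046 for Dnmt3l, 0.013 for Pcgf6 and 0.38 for Sycp3 in KO, -0.0069 for Sycp3 in C54Y and 0.39 for Sycp3 between the mutants. Unblocked edgeR gave 0.22 for Ddx4, -0.11 for Dnmt3l and 0.27 for Sycp3 in KO, -0.0032 for Slc25a31 and -0.031 for Sycp3 in C54Y, and 0.30 for Sycp3 between the mutants. For Sycp3, KO against WT and against C54Y stood at 0.087 and 0.061 by blocked DESeq2, 0.049 and 0.026 with GC correction (Pcgf6 0.016 in KO) and 0.016 and 0.015 by blocked edgeR (Slc25a31 -0.0027 in C54Y). Without 1 library, KO against WT ran from -0.68 to 0.40 for Ddx4, -0.13 to 0.35 for Dnmt3l, -0.14 to 0.54 for Mga, -0.32 to 0.23 for Pcgf6, -0.23 to 2.04 for Stk31 and -0.60 to 0.52 for Sycp3. C54Y against WT ran from -0.73 to 0.041 for Ddx4, -0.13 to 0.0096 for E2f6, -0.30 to 0.45 for Mael, -0.23 to 0.12 for Pcgf6, -0.33 to 0.38 for Slc25a31, -0.30 to 1.11 for Stk31 and -0.29 to 0.35 for Sycp3. KO against C54Y ran from -0.33 to 0.74 for Ddx4, -0.62 to 1.36 for Hormad1, -0.63 to 1.64 for Stk31 and -0.63 to 0.49 for Sycp3.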
